A study of Arabidopsis thaliana with 4 samples.

Results

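SWEET proteins are sugar transporters of plants, and transcripts of 5 genes of this family, SWEET1, SWEET10, SWEET11, SWEET13 and SWEET16, were followed in Arabidopsis thaliana plants that express the cold-response transcription factor CBF2 from the 35S promoter. The members were the probe sets whose single annotated gene symbol is one of these names, which gave 5 genes, with 1 probe set for each. The annotation used here listed a probe set of their own for 13356 genes, on an array of 22810 probe sets. The 5 genes were chosen by their signals on these same 4 arrays, those of 35S::CBF2 set against wild type, so their levels and differences are given as a description. The fit across all probe sets gave them calls as well, but these rest on the same values and are not used as a test.

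Whole plants, 10 days old, had been stratified in the cold (4 °C) for 4 days and then kept on plates in continuous light at 24 °C. RNA was measured on 2 arrays of wild type plants of the Ws-2 accession (Wassilewskija) and on 2 arrays of plants labelled 35S::CBF2, a CBF2 overexpressor driven by the broadly active 35S promoter; the labels do not name the accession of the transgenic plants. About 100 plants were grown per plate and 4 plates were harvested for each genotype, per the labels, which do not tie arrays to plates. The treatment text names a single transgenic line, E2, while the sample titles carry the codes E24 and E2, so it is not settled whether both 35S::CBF2 arrays come from the same line. Both of these titles carry the same replicate number, so the 35S::CBF2 replicates were numbered here in the order of the series. Replicate 1 is the array with the code E24, and replicate 2 is the array with the code E2. Nothing in the labels states that the arrays of a group came from separate cultures, and p-values here thus reflect the spread among these few samples alone, and that spread may be technical.

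SWEET proteins let sugars pass down their concentration gradient, in contrast to the proton-coupled carriers that drive sugar against it. The family falls into 4 clades. Members of clades I and II carry mainly hexoses, those of clade III mainly sucrose, and those of clade IV sit in the tonoplast, the membrane of the vacuole. In leaves, clade III members release sucrose from the phloem parenchyma before it is loaded into the sieve tubes, and clade IV members exchange hexoses between the vacuole and the cytosol, where sugars also build up during cold acclimation.

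COR15A, a chloroplast cold protein and a known CBF target, gave 13.2 and 6.18 on the wild type arrays against 8987 and 8018 with the transgene, so both transgenic arrays show the marker that their label implies; CBF2 itself was not analysed here. Median signals of gene probe sets ranged from 39.6 to 42.4 over the 4 arrays. Hybridisation spike-in controls on 35S::CBF2 replicate 2 reached 1.91-fold of the wild type level, against 0.664-fold on 35S::CBF2 replicate 1, so the differences of the 5 genes are also given without replicate 2. Of the markers that check the labelled tissue, 4 of 9 green tissue genes and 3 of 6 root genes had a named probe set. Such a probe set is listed for a single gene in the annotation used here. Signals ranged from 6774 to 8084 for RCA of the leaf and from 1429 to 2046 for PYK10 of the root. None of these 7 genes passed the test described below (limma, and 0 also at an unadjusted p under 0.05), and 0 of 8 phloem markers had a named probe set, so the share of phloem cells was not tested.

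In 35S::CBF2, 3 of the 5 transcripts were higher and 2 were lower (the plot of signals by array). SWEET1, SWEET10 and SWEET13 were higher. SWEET11 and SWEET16 were lower. The groups did not overlap for any of the 5, a pattern that 41.7% of all tested probe sets share, 17.8% with the higher and 23.9% with the lower values in 35S::CBF2. It also held for 8 of the 11 other SWEET genes with a named probe set, among them genes too dim to be tested. All 5 passed the threshold of the fit across the array (limma, Benjamini-Hochberg adjusted p under 0.05), which 3.36% of the 13647 tested probe sets did, 2.11% upward and 1.25% downward. The genes were picked with these values known, so nothing is read from that count. These are bulk samples, in which fewer cells of a type and less RNA per cell cannot be told apart.

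**Figure D1:**
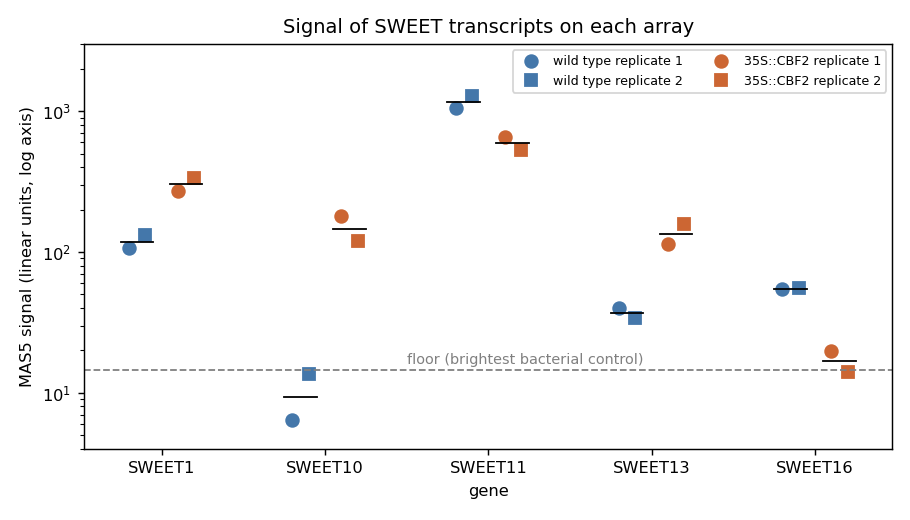
MAS5 signal (log axis) of the 5 SWEET probe sets, with wild type arrays in blue, 35S::CBF2 arrays in orange, replicate 1 as circles, replicate 2 as squares, and the geometric mean of each group as a black line. SWEET10 lies below the dashed floor of 14.5, the brightest bacterial control, on both wild type arrays and at 119 or more on both 35S::CBF2 arrays, while SWEET11 and SWEET16 are lower in 35S::CBF2; heights of different probe sets are not comparable.

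SWEET1 (AT1G21460), of clade I, is a glucose transporter of the plasma membrane. The wild type arrays read 107 and 131, and those of 35S::CBF2 read 271 and 337. The lower 35S::CBF2 array was 2.07 times the higher wild type array, and arrays of the same genotype differed by at most 1.24 times. The geometric mean was 2.55-fold higher in 35S::CBF2, a log2 difference of 1.35 ± 0.20 (limma SE, n = 2 arrays per group).

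SWEET10 (AT5G50790), of clade III, encodes a plasma membrane transporter known in Arabidopsis as a gene activated downstream of the florigen FT at the floral transition. It read 6.42 and 13.6 in wild type, and 35S::CBF2 plants gave 180 and 119. Both wild type signals lay under the floor of 14.5, set by the brightest of 27 bacterial control probe sets on any array, so the transcript was not above background in wild type and only a bound can be given. The geometric mean of 35S::CBF2, 146, was at least 10.1-fold higher. The fitted log2 difference of 3.97 ± 0.39 takes the wild type signals at face value, and it became 3.34 once signals under the floor were set to the floor.

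SWEET13 (AT5G50800), also of clade III, encodes a sucrose transporter that is known for its part in anther and pollen development together with SWEET14. Wild type gave signals of 39.8 and 34.2, compared with 114 and 159 for 35S::CBF2. The groups were apart, with a ratio between 2.87 and 4.65 in every pairing of a 35S::CBF2 array with a wild type array. The geometric means were 36.9 and 135, 3.66-fold apart (log2 difference 1.87 ± 0.25).

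SWEET11 (AT3G48740) is the third clade III member and differed in the other direction. It encodes one of the sucrose exporters that, with SWEET12, supply the phloem of the leaf. The signals of 1048 and 1284 in wild type compare with 658 and 532 in 35S::CBF2, so that each 35S::CBF2 array was below each wild type array by between 1.59 and 2.41 times. The geometric mean was 1.96-fold lower, a log2 difference of -0.97 ± 0.17, the smallest of the 5. Its close relative SWEET12 was not analysed here, and whether the SWEET11 probe set also takes up SWEET12 transcript was not tested.

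SWEET16 (AT3G16690), of clade IV, encodes a tonoplast transporter of hexoses and sucrose, and in Arabidopsis its overexpression is known to alter freezing tolerance. Signals of 54.3 and 55.5 in wild type nearly coincided, and those of 35S::CBF2 were 19.8 and 14.2. The second of these lies just under the floor of 14.5, so 1 of the 2 35S::CBF2 arrays gives a level above background. The geometric mean was 3.29-fold lower (log2 difference -1.72 ± 0.34), and the pairings of single arrays gave ratios between 2.75 and 3.92 in the same direction.

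Each array was left out in turn to see how far single arrays carry these values (the plot of differences with each array left out). No difference changed sign. All values of SWEET10 given here take its wild type signals, both under the floor, at face value, so their size is not a measured one. Without 35S::CBF2 replicate 2, the array with the bright spike-ins, the log2 differences were 1.19 for SWEET1, 4.27 for SWEET10, 1.63 for SWEET13, -0.82 for SWEET11 and -1.48 for SWEET16. Without wild type replicate 1 the value was 3.43 for SWEET10 and -1.73 for SWEET16, and without wild type replicate 2 it was 4.51 and -1.70. These values include arrays that entered the choice of the genes, so a sign that holds is a description and no sign of stability. In these fits the lone array of a group is assumed to vary like the arrays of the other group.

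**Figure D2:**
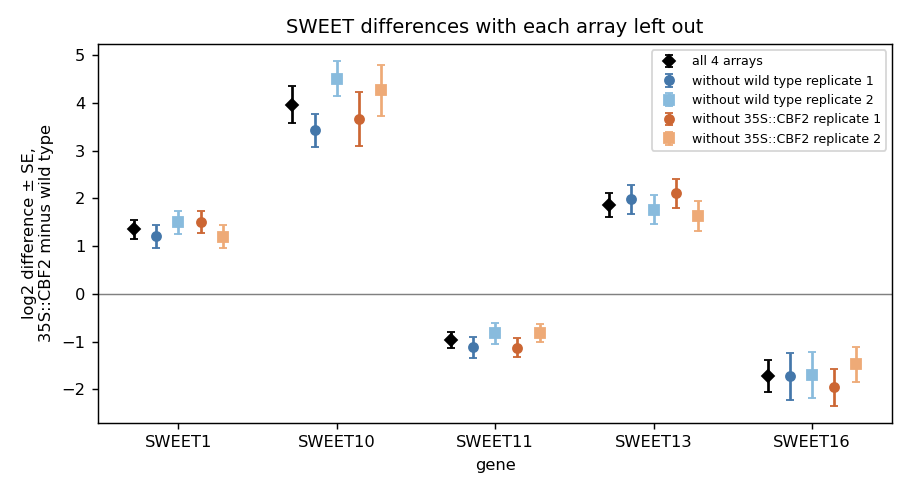
Log2 difference (35S::CBF2 minus wild type) of each SWEET gene with all 4 arrays (black diamonds) and with each array left out (coloured points); bars are the limma SE. SWEET1 stays between 1.19 and 1.51, SWEET13 between 1.63 and 2.11, SWEET10 between 3.43 and 4.51, SWEET11 between -1.12 and -0.82 and SWEET16 between -1.96 and -1.48. The SWEET10 values take wild type signals under the floor at face value.

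The rest of the family shows what the choice of 5 leaves out. Arabidopsis has 17 SWEET genes, of which 16 had a probe set listed for a single gene in the annotation (the plot of the family by clade). Among the 11 outside the 5, only SWEET2, SWEET4 and SWEET17 had a mean signal above the filter, a geometric mean of 24.8 over the 4 arrays, and 0 of these 3 passed (limma; 1 had an unadjusted p under 0.05, SWEET2). The other 8 lay below the filter, with single signals between 1.18 and 23.8, and were not tested. Over the 8 family probe sets above the filter the median log2 difference was -0.12, against -0.04 over all tested probe sets. These 8 include the 5 genes chosen on the same values, so nothing is read from that median. SWEET10 and SWEET16 cleared the filter only through the genotype in which they were high.

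In clade I, SWEET2, a vacuolar transporter known from roots, measured 131 and 151 in wild type, with 103 and 95.3 in 35S::CBF2. Its log2 difference of -0.51 ± 0.20 did not pass (adjusted p = 0.279), and its sign is opposite to that of SWEET1. SWEET3, the remaining clade I gene, was dim, with 11.3 and 12.6 for wild type against 21.9 and 16.9 for 35S::CBF2.

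Of the 5 clade II genes, only SWEET4, a hexose transporter, was above the filter. Its signals lay between 24.5 and 26.2 on all 4 arrays, a log2 difference of 0.06 ± 0.35. AtVEX1, the gene numbered SWEET5 and known from the vegetative cell of pollen, was below the floor on all arrays, reading 2.01 and 1.85 in wild type, then 6.21 and 12.2 in 35S::CBF2. SWEET6, SWEET7 and SWEET8 had no array above 18.2.

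Clade III held both directions, and it held the largest difference, that of SWEET10 with wild type under the floor. Besides SWEET10 and SWEET13, which were higher, and SWEET11, which was lower, the nectary gene SWEET9 read 23.8 and 10.1 for wild type, with the 35S::CBF2 values of 17.7 and 14.2 between them. SWEET14, the close relative of SWEET13, exceeded the floor on 1 of the 4 arrays, at 18.6 in wild type replicate 1, so no difference could be measured for it. SAG29, the gene numbered SWEET15 and known from senescing leaves and seeds, reached 15.1 on a single wild type array and at most 3.55 on the other arrays.

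In clade IV the vacuolar fructose transporter SWEET17 measured 209 and 140 for wild type against 160 and 121 for 35S::CBF2. These overlap, and the log2 difference of -0.30 ± 0.24 did not pass (adjusted p = 0.709). SWEET16 and SWEET17 thus had differences of the same sign, of -1.72 and -0.30, and the difference between the 2 genes was not tested.

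**Figure D3:**
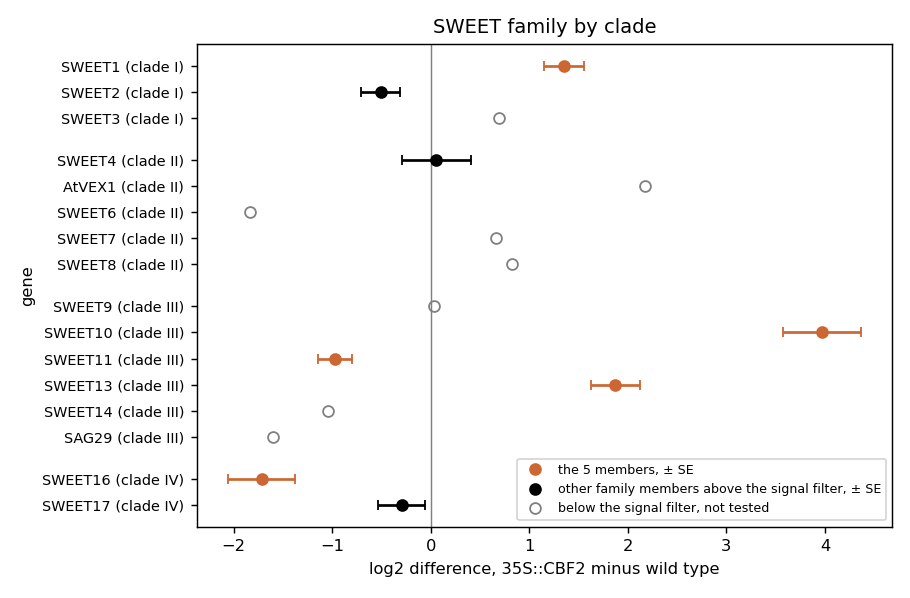
Log2 difference (35S::CBF2 minus wild type) of the 16 measured SWEET genes, ordered by clade; bars are the limma SE, orange points are the 5 genes described, black points the other 3 above the signal filter and open points the 8 below it. Clade III spans from SWEET10 at 3.97 to negative values, and SWEET2, SWEET4 and SWEET17 lie between -0.51 and 0.06. The SWEET10 value takes wild type signals under the floor at face value.

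The genes next to the 5 on the chromosome were read from the RefSeq gene table. SWEET10 and SWEET13 are direct neighbours with no gene between them, and both were higher in 35S::CBF2. Whether the probe set of either gene also takes up transcript of the other was not tested. The gene on the other side of SWEET10, AT5G50780, was below the filter, with wild type at 21.0 and 25.1, 35S::CBF2 at 22.2 and 27.1, and a log2 difference of 0.10. Beside SWEET16 lie AT3G16680, which was below the floor on all arrays, and AT3G16700, which measured 67.1 and 51.7 in wild type, above the 31.5 and 30.0 of 35S::CBF2. The log2 difference of AT3G16700 was -0.94 ± 0.28 and did not pass (adjusted p = 0.131). Genes in second place were added after their values were seen. AT3G16670, in second place from SWEET16, measured 630 and 574 in wild type, 196 on 35S::CBF2 replicate 1 and 17.6 on replicate 2. Its log2 difference of -3.36 ± 0.78 passed (limma, adjusted p = 0.0418), although its 35S::CBF2 arrays were 11.2-fold apart. In second place from SWEET1 lie AT1G21440 and AT1G21480, with log2 differences of -0.37 and -0.19 that did not pass (adjusted p = 0.428 and 0.812). For the direct neighbours of SWEET1 and SWEET11 no probe set of a single gene was listed.

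Genes whose 4 signals ran most like those of each member were found by the distance between log2 signals, each centred on its own mean over the 4 arrays, among 7276 other tested probe sets of a single gene. SWEET1 was closest to AT5G23850, with a distance of 0.095 and signals of 31.2 and 36.8 for wild type, 77.8 and 90.2 for 35S::CBF2, followed by AT2G27830 (0.136) and AT3G60520 (0.159). SWEET13 was closest to AT1G70900 (0.159), AT1G33230 (0.205) and the beta-glucosidase gene BGLU25 (0.229). SWEET11 was closest to AR781 (0.067), AT5G18970 (0.068) and the actin gene ACT11 (0.091), and SWEET16 to AT2G05540 (0.260), AT4G27300 (0.373) and AT1G33600 (0.396). For SWEET10 the nearest were AT4G30650 at 0.864, AT1G48100 at 0.920 and AT1G68500 at 1.16; these distances take in its wild type signals under the floor, whose order carries no information. With 4 arrays in 2 groups, likeness of this kind is mostly a like difference between the genotypes.

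The genes that work alongside the SWEET family were taken from 6 lists, of sucrose transporters, hexose symporters, vacuolar and plastid carriers, polyol and inositol transporters, invertases, and enzymes of sucrose synthesis and cleavage. These lists were chosen with earlier results of these data known, so the counts and p-values of their genes are given as a description. Of 90 listed genes 26 had a probe set listed for a single gene in the annotation, and 16 were tested. Of these 16, 1 rose and 0 fell in 35S::CBF2 (limma, adjusted p under 0.05), or 1 of 16 where 3.36% of all tested probe sets passed in either direction. At an unadjusted p under 0.05 there were 7 of the 16, where 13.1% of all tested probe sets lay. Their median log2 difference was -0.05, against -0.04 over all tested probe sets, and 11 of the 16 lay between -0.5 and 0.5. None of the 9 sucrose transporter genes had a named probe set, so the carriers that take up the sucrose released by SWEET11 were not analysed here.

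The gene that rose was TMT2, which encodes a proton-coupled carrier that moves sugars into the vacuole. The wild type signals of 147 and 174 lay below the 313 and 300 of 35S::CBF2. The rise was 1.92-fold (log2 difference 0.94 ± 0.18, adjusted p = 0.0149). It was not called without the intensity trend (adjusted p = 0.0859), without wild type replicate 1 (0.0819) or without 35S::CBF2 replicate 2 (0.0519), in a range of 0.00526 to 0.0859 over 14 alternatives. Its relative TMT1 measured 298 and 324 in wild type, then 254 and 201 in 35S::CBF2, and its log2 difference of -0.46 ± 0.18 failed the threshold (adjusted p = 0.287).

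**Figure D4:**
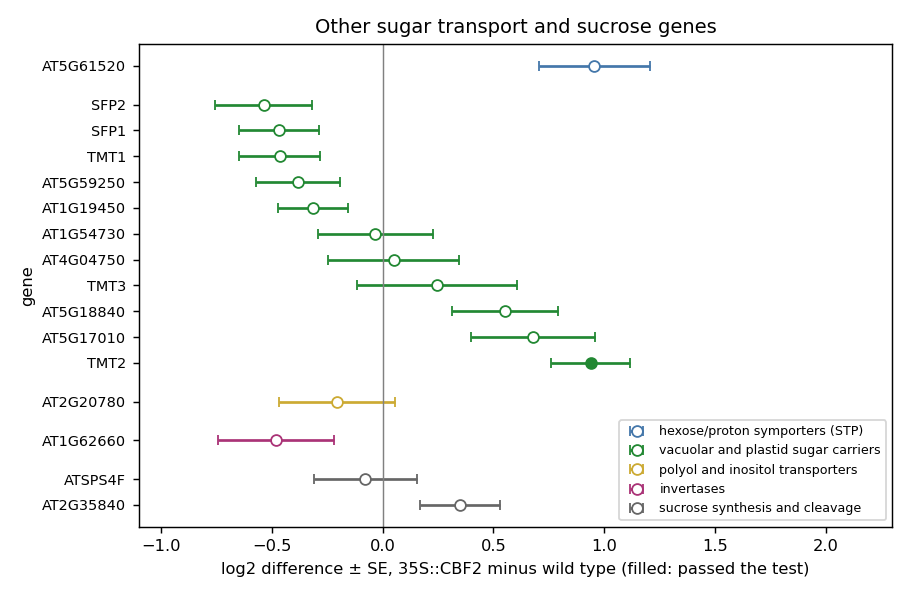
Log2 difference (35S::CBF2 minus wild type, bars are the limma SE) of the 16 tested genes of the sugar lists, coloured by list; the filled point passed the threshold and open points did not. TMT2 at 0.94 is the filled point, and AT5G61520 lies at 0.96 with a wider error.

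Among the other tested genes of these lists, AT5G61520, the tested entry of the hexose symporter list, measured 49.1 and 76.4 for wild type against 118 and 120 for 35S::CBF2. The log2 difference, 0.96 ± 0.25, missed the threshold (adjusted p = 0.0763). It passed without wild type replicate 2 (0.0241) and with the A or B of the titles as a block (0.0295), in a range of 0.0241 to 0.384 over 14 alternatives. The sugar porter genes SFP1 and SFP2 had log2 differences of -0.47 ± 0.18 and -0.54 ± 0.22 with adjusted p of 0.270 and 0.308. They belong to the list of vacuolar and plastid carriers, whose 11 tested genes had a median of -0.03. Genes of that list that are not named here went in both directions. ATSPS4F, a sucrose phosphate synthase gene, had -0.08 ± 0.23, and its 35S::CBF2 signals of 267 and 440 lay on either side of the wild type signals of 326 and 401. AT1G62660, the tested entry of the invertase list, had -0.48 ± 0.26, AT2G20780 of the polyol transporter list -0.21 ± 0.26 and AT2G35840 of the sucrose enzyme list 0.35 ± 0.18; none of these passed.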

How the data were processed

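Each array contributes a deposited intensity, the linear MAS5 signal, for every probe set. The submitters' processing notes name MAS5 as the authors' tool; neither a version nor the genome build is given in the sources used here. Arrays had been scaled before deposit, since their 2%-trimmed means were all 100.0. Genes came from a 2016 platform annotation (13513 probe sets with 1 gene, 503 with several, 8730 not listed), with 13436 of the first matched to the RefSeq gene table of TAIR10.1. Array coordinates and sequences were not used here.

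Signals were taken to log2. Probe sets, 64 controls left out, with a mean above the 40th percentile were tested (13647) with limma 3.58.1 in R 4.3.3 (two-sided, eBayes with a trend in intensity), and p-values were adjusted by Benjamini-Hochberg over all of them. Folds are ratios of geometric means; with 2 arrays per group their number limits the precision. The procedure was tested on simulated data whose spread was capped and not tied to intensity, so this was a check of the code alone. Named genes were all SWEET family probe sets, list members that passed or had 1 of the 4 smallest p in their list, direct chromosomal neighbours (those in second place were added after their values were seen), the 3 nearest patterns per member, and tissue markers. The members and lists were chosen with earlier results of these data known. Alternatives were another normalization, filter, offset, floor, variance model, threshold, the title letter as a block, and leaving out each array.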

Additional observations from a re-analysis of the deposited data

Results flagged for a closer look

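The hybridisation spike-in controls, sequences outside the comparison, were bright on 35S::CBF2 replicate 2. As the geometric mean of 9 probe sets they stood at 1.91 relative to the average of the wild type arrays, which themselves stood at 0.986 and 1.01. On 35S::CBF2 replicate 1 they stood at 0.664, below both wild type arrays. Without replicate 2 the log2 differences of SWEET1, SWEET10 and SWEET13 were 1.19, 4.27 (wild type signals under the floor at face value) and 1.63. Those of SWEET11 and SWEET16 were -0.82 and -1.48. Without replicate 1 instead, SWEET1, SWEET10 and SWEET13 had 1.51, 3.67 (again at face value) and 2.11. SWEET11 and SWEET16 then had -1.12 and -1.96. The part of the spike-in signal in these values was not tested.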

How the results depend on the processing

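No paired analysis was possible because the groups share only 1 replicate number in the labels, and nothing there says that the title letters pair the samples; the letters served as a block in an alternative only. The differences of the 5 SWEET genes kept their sign in the 9 alternatives compared for them. Of these, the title letter as a block could not move any estimate, since both letters occur in both groups. The floor could move only SWEET10 and SWEET16. With an offset of 11.7 before the log the differences were 2.89 for SWEET10, 1.59 for SWEET13 and -1.22 for SWEET16. With signals raised to the floor SWEET10 had 3.34, and both settings compress dim signals. The SWEET genes were chosen on these values, so the counts of them past the threshold (5 as reported) say nothing about stability. They numbered 3 with the filter at the 60th percentile, which left SWEET10 and SWEET16 untested. There were 4 with no filter, where SWEET16 was not called, and 4 without the intensity trend, where SWEET11 was not called. In some of the fits with an array left out, SWEET16 alone, or SWEET11 and SWEET16 together, lost the call. Of the 6 sugar lists 0 genes passed without the trend (limma; 4 at an unadjusted p under 0.05), 2 when the title letter was a block and 2 at an adjusted p under 0.1 (TMT2 and AT5G61520 in both), and 0 to 2 with an array left out. Changed probe sets on the array (458) were 205 without the trend (157 higher, 48 lower), 661 with the block (281 lower), 315 with no filter (96 lower), 619 at an adjusted p under 0.1 (259 lower), and 270 to 605 when leaving out an array. For these counts the cause was not tested. For the 9 named genes of the sugar lists 119 comparisons kept their side of the threshold, 3 lost the call (TMT2) and 3 gained it (AT5G61520). The floor was planned for the SWEET differences, and for the counts it was added after seeing the data. Dim signal limits SWEET10 in wild type, SWEET16 in 35S::CBF2 and the 8 family genes below the filter.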
